A study of Homo sapiens with 6 samples.

Results

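The 133 entries described here are mature miRNAs whose registry numbers run from miR-3000 to miR-5999 and that had at least 60 reads summed over 6 small RNA libraries. They were taken from 2588 mature miRNAs in the deposited counts, of which 904 carried a number in this range. Of those 904, 468 had no read in any library, 299 had fewer than 60 summed reads, and 4 reached the minimum but belong to 6 numbers that the rule leaves out. Members were chosen by their summed counts, and these come from the same libraries as every value below, so abundance is a description here.

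All libraries were made from A549, an established human line of lung adenocarcinoma, with a lentiviral and inducible shRNA knockdown (KD) of METTL1. METTL1 is a methyltransferase that places internal N7-methylguanosine (m7G) in certain RNAs, such as specific tRNAs. Cells had received 200 ng/ml doxycycline and RNA was taken at day 5. The 2 groups, with 3 libraries each, were total RNA, and heat-denatured, decapped RNA recovered with an anti-m7G antibody (m7G-RIP). Both groups carry the knockdown, the culture text of the m7G-RIP samples describes medium for Caco-2, a colon line, and neither METTL1-proficient cells nor control IgG libraries were analysed here. The knockdown itself cannot be checked from miRNA counts, and the labels do not say whether replicates were separate cultures, so p-values measure the spread between these libraries.

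Total counts ran from 9155690 to 10753443 reads in total RNA and from 2649238 to 3106556 in m7G-RIP, so a level of 3 reads corresponds on average to 0.363 and 0.876 CPM, which is reads per 1000000 of the TMM-scaled library size. Of 14 marker miRNAs, miR-21-5p led with a mean of 574830 CPM in total RNA, and it was at 40653 CPM after m7G-RIP. miR-142-3p and miR-223-3p of blood, miR-122-5p of liver and miR-206 of muscle were at 0 in all 6 libraries. The epithelial miRNA miR-200c-3p was at 84.9 CPM in total RNA, and its cluster partner miR-141-3p had at most 6 reads in a library. miR-192-5p, an abundant miRNA of intestinal epithelium, was at 21337 CPM in total RNA and 2921 CPM after m7G-RIP. miR-194-5p and miR-215-5p, of the same tissue, were at 502 and 51.3 CPM in total RNA and at 93.2 and 5.31 CPM after m7G-RIP. Another muscle miRNA, miR-1-3p, had reads in every library, 88, 79 and 69 in total RNA and 66, 260 and 2 in m7G-RIP. The muscle miRNA miR-133a-3p had 114 reads in m7G-RIP replicate 2, 20 in total RNA replicate 2 and none in the other libraries, and the blood miRNA miR-451a had 5 reads in m7G-RIP replicate 2 alone. The part of these marker levels in the results below was not tested.

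A miRNA hairpin is normally cut by DROSHA and then DICER into a short duplex with offset 3′ ends, from which 1 arm is loaded into an Argonaute protein and finds targets through its seed, bases 2 to 8. Mirtrons are hairpins released by splicing in place of DROSHA, so that an arm starts or ends at the edge of an intron. Registry numbers were given in order of submission, and the entries in this range date from the years in which deep sequencing added many weakly expressed candidates. Fragments of tRNA, rRNA or mRNA can carry the same bases as such an entry.

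Mature sequences were found for 119 of the 133 members in the RefSeq table for GRCh38.p14. Each is written 5′ to 3′ with the seed in capitals. The first set holds the most abundant member and the entries with the largest m7G-RIP to total RNA ratios among well counted members, followed by those with the smallest.
miR-3615: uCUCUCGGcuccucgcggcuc
miR-3168: gAGUUCUAcagucagac
miR-3177-3p: uGCACGGCacuggggacacgu
miR-3182: gCUUCUGUaguguaguc
miR-3940-5p: gUGGGUUGgggcgggcucug
miR-4444: cUCGAGUUggaagaggcg
miR-4473: cUAGUGCUcuccguuacaagua
miR-4521: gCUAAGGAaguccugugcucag
miR-4746-5p: cCGGUCCCaggagaaccugcaga
miR-3940-3p: cAGCCCGGaucccagcccacuu

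The second set shows entries whose bases also occur in other RNAs of the cell. They and the remaining entries named for a sequence feature (a shared seed, a match to another RNA, an intron edge or equal counts), and miR-4443, miR-3909, miR-3922-3p, miR-4517, miR-4671-5p and miR-4725-3p, were picked after their values were seen.
miR-4426: gAAGAUGGacguacuuu
miR-3654: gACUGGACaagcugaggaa
miR-4485-3p: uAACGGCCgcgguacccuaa
miR-4488: aGGGGGCGggcuccggcg
miR-4497: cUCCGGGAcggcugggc
miR-5701: uUAUUGUCacguucugauu

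The third set shows entries at the edge of an intron, where 5′ arms open with the GU of a splice donor and 3′ arms close with the AG of an acceptor.
miR-4758-5p: gUGAGUGGgagccgguggggcug
miR-3605-3p: cCUCCGUGuuaccuguccucuag
miR-4667-3p: uCCCUCCUucuguccccacag
miR-4728-3p: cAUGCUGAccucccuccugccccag
miR-4749-3p: cGCCCCUCcugcccccacag
miR-5010-3p: uUUUGUGUcucccauuccccag

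The members were a small share of each library. They took 0.230%, 0.215% and 0.244% of all miRNA counts in total RNA and 0.554%, 0.516% and 0.620% in m7G-RIP, a mean of 0.230% ± 0.0145 and 0.564% ± 0.0525 (SD, n = 3 each). The groups of libraries did not overlap. Such shares also depend on the other miRNAs counted: miR-21-5p alone had 5230937, 5030366 and 4078719 reads in total RNA. In m7G-RIP it had 128009, 138349 and 152492 reads. The part of this difference in the members' shares was not tested. The 3 most counted members, miR-3615, miR-3182 and miR-4521, held 43.8% of the members' reads, and the median member had 148 reads over the 6 libraries. Only 91 of the 133 had a read in every library, and 47 had at least 10 reads in every library.

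At the edge of the rule, miR-4436b-5p had 60 summed reads, miR-4442 had 62, and miR-5581-3p and miR-4725-3p had 63. Just outside it, miR-3929 and miR-3682-3p had 58 and miR-4645-3p had 57. For such entries the libraries disagreed among themselves: miR-4436b-5p had 28 reads in total RNA replicate 2 and none in replicates 1 and 3.

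m7G-RIP was compared with total RNA in a single edgeR quasi-likelihood fit over 620 miRNAs that passed the expression filter, and 122 of the 133 members were among them. The other 11 had too few reads and got no call. Of these, 37 members were enriched in m7G-RIP and 14 depleted (adjusted p below 0.05), while 71 did not pass the test. Over all 620 miRNAs, 23.5% were enriched and 29.2% were depleted. The median log2 ratio (m7G-RIP over total RNA) of the members tested was 0.92, with quartiles of -0.34 and 2.02, against -0.07 over all miRNAs tested. Scaling by library size alone moved the median of all miRNAs by 0.55 and called 51 members enriched and 11 depleted, and the difference between the members' and the overall median was 0.99 with TMM and 1.00 with library size alone. Enriched miRNAs made up 44.6% of all calls with TMM and 60.5% with library size alone. The groups did not overlap for 63 of the 122 members. All m7G-RIP levels exceeded all total RNA levels in 46 members, against 29.5% of all miRNAs tested, and lay below them in 17, against 36.5%.

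The filter bears on these counts, because 17 of the 37 enriched members passed it through their m7G-RIP libraries alone and 6 of the 14 depleted members through their total RNA libraries alone. Among the 45 members at the filter's minimum in every library of both groups, 20 were enriched and 8 were depleted. Of all miRNAs tested, 374 were at that minimum in every library, but their calls were not counted apart. In a fit limited to miRNAs with at least 10 reads in every library, 26 of 47 members were enriched and 6 depleted. Over all 359 miRNAs of that fit, 124 were enriched and 133 depleted. Calls also depended on the set of libraries: 16 of the 37 enriched and 8 of the 14 depleted members were called in all 6 fits that left out 1 library. Such fits have fewer libraries and change which miRNAs pass the filter, so a lost call does not mean that it rested on the library left out. Leaving out any 1 of the total RNA replicates 1, 2 and 3 gave 24 enriched members. The depleted count was 9 without total RNA replicate 2 and 21 without m7G-RIP replicate 2.

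**Figure D1:**
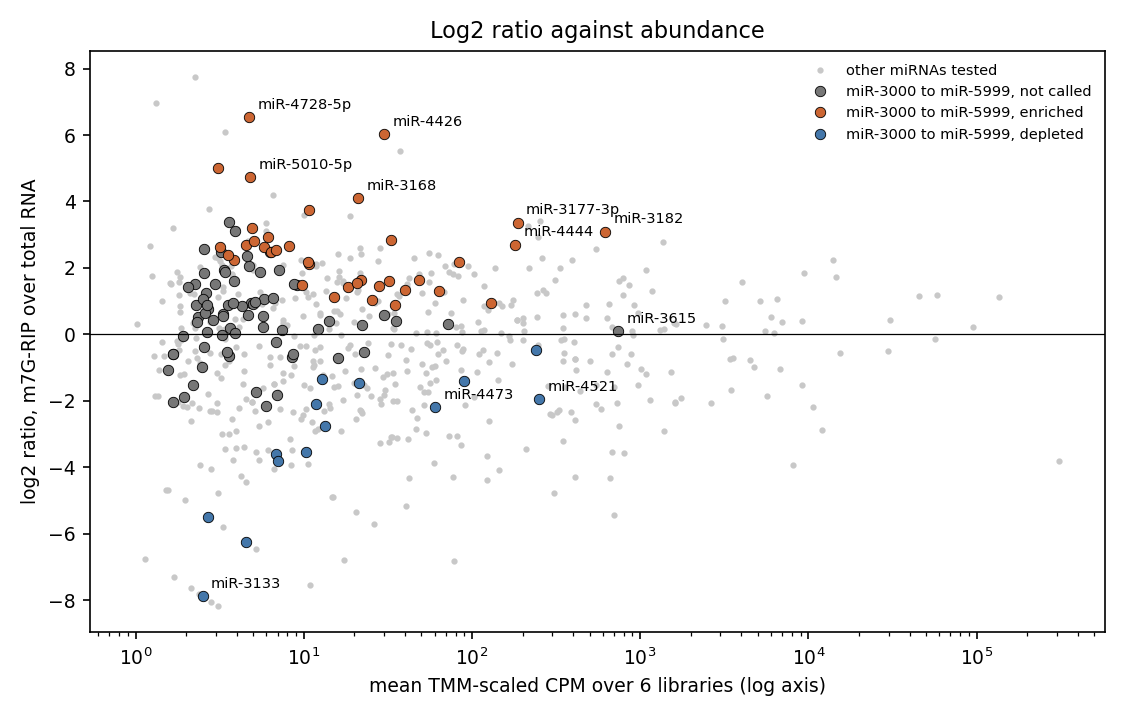
Log2 ratio of m7G-RIP over total RNA against mean TMM-scaled CPM over the 6 libraries (log axis) for the 620 miRNAs tested, with the 122 tested members from miR-3000 to miR-5999 coloured by their edgeR call. Most members lie at the left, at low abundance, where ratios spread widely in both directions, and 37 enriched and 14 depleted members are marked.

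miR-3615 was the most abundant member in total RNA, with 668, 692 and 787 CPM there and 786, 669 and 826 CPM after m7G-RIP. The groups overlapped, and the log2 ratio was 0.087 (SE 0.13, adjusted p 0.586 by edgeR). It lies at chr17:74748663-74748683 (GRCh38, as for all positions here) on the plus strand, in an exon of NHERF1, a scaffold protein of the apical membrane, 11 bases downstream of an annotated transcript start. With library size alone its log2 ratio was 0.65 and passed the test.

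miR-3182 was the most abundant member in m7G-RIP. It read 121, 128 and 141 CPM in total RNA and 770, 1006 and 1536 CPM after m7G-RIP. The groups were far apart, although the m7G-RIP libraries differed among themselves, and the log2 ratio was 3.09 (SE 0.25, adjusted p 7.75e-06 by edgeR). Its 17 bases sit at chr16:83508349-83508365 in an intron of CDH13, a cadherin.

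miR-3177-3p, from chr16:1735038-1735058 in an intron of MAPK8IP3, a scaffold of JNK signalling, measured 30.2, 24.4 and 44.8 CPM in total RNA. In m7G-RIP it measured 359, 322 and 339 CPM, with no overlap. Its log2 ratio was 3.36 (SE 0.24, adjusted p 4.26e-06 by edgeR), and its partner arm miR-3177-5p had only 15 reads, all in total RNA.

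miR-4444 is listed at more than 1 place, chr2:177212768-177212785 in an exon of the RNA-binding protein gene HNRNPA3 and chr3:75214518-75214535 in an exon of a non-coding gene. It measured 59.1, 48.7 and 37.6 CPM in total RNA and 352, 342 and 249 CPM after m7G-RIP. These groups did not overlap, and the log2 ratio was 2.69 (SE 0.23, adjusted p 1.18e-05 by edgeR).

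The largest ratio among members with at least 10 reads in every library was that of miR-3168, an intergenic entry at chr13:41101076-41101092. Its 17 bases had 25 further places in the genome at 1 mismatch and were not compared with the adaptor sequences of the library kit. Its level went from 1.92, 2.14 and 2.89 CPM in total RNA to 40.6, 37.7 and 41.0 CPM after m7G-RIP. The 17-base entry miR-3178 (intergenic, chr16:2531979-2531995) was higher in m7G-RIP by a log2 ratio of 0.95 (SE 0.28, adjusted p 0.019 by edgeR). Leaving out total RNA replicate 3, m7G-RIP replicate 1 or m7G-RIP replicate 2 ended this call, at adjusted p from 0.0798 to 0.127.

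**Figure D2:**
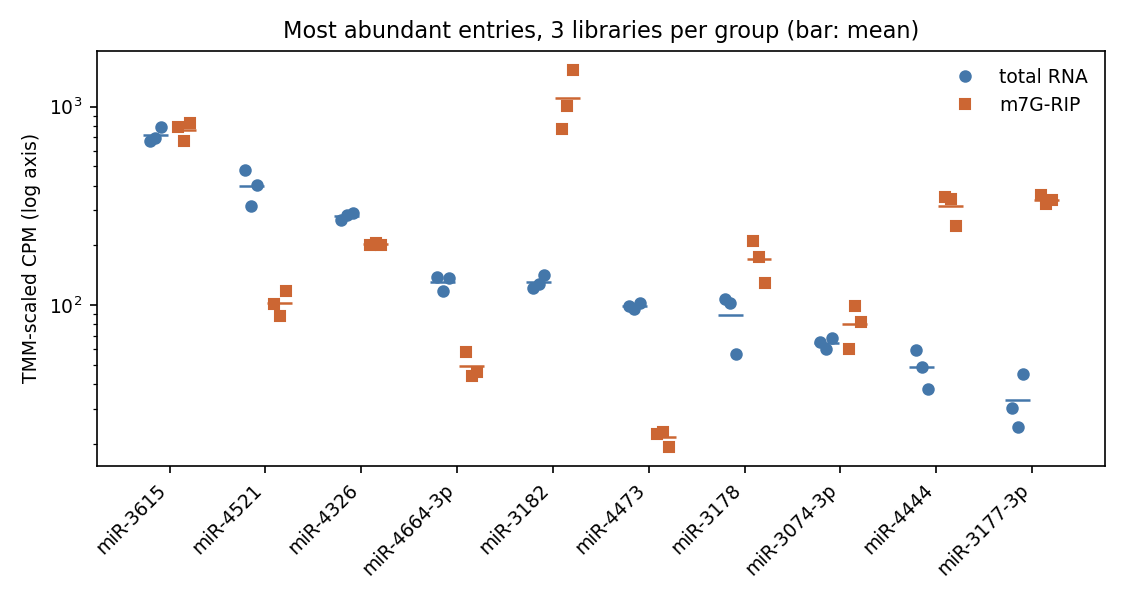
TMM-scaled CPM (log axis) in each of 3 total RNA libraries (circles) and 3 m7G-RIP libraries (squares) for the most abundant members, with the group mean as a bar. miR-3182, miR-4444 and miR-3177-3p are higher in every m7G-RIP library, miR-4521, miR-4664-3p and miR-4473 are lower in every one, and miR-3615 and miR-3074-3p overlap.

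Other well counted members with a high ratio included miR-4443, an intergenic 17-base entry at chr3:48196572-48196588. It measured 27, 33.3 and 30.5 CPM in total RNA and 154, 122 and 135 CPM after m7G-RIP. The groups were apart, with a log2 ratio of 2.18 (SE 0.20, adjusted p 1.8e-05 by edgeR).

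Depleted entries were less frequent but well measured at the top of the range. miR-4521, an intergenic miRNA at chr17:8186948-8186969, read 478, 315 and 402 CPM in total RNA and 101, 87.9 and 118 CPM after m7G-RIP. All m7G-RIP libraries were lower, with a log2 ratio of -1.96 (SE 0.20, adjusted p 3.85e-05 by edgeR).

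miR-4473 (chr9:20411161-20411182, an intron of MLLT3, a subunit gene of the super elongation complex) was at 98.6, 95.6 and 102 CPM in total RNA against 22.4, 22.9 and 19.3 CPM after m7G-RIP. Replicates were close and the groups well apart, giving the lowest ratio among well counted members, -2.20 (SE 0.21, adjusted p 2.06e-05 by edgeR). miR-4664-3p fell by 1.41 on the log2 scale (adjusted p 0.000304 by edgeR) and miR-4746-5p, antisense to UBXN6 at chr19:4445987-4446009, by 1.48 (adjusted p 0.00307 by edgeR).

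At lower levels, miR-3909 (chr22:35335710-35335731, an intron of TOM1) had 22.8, 18.2 and 29.5 CPM in total RNA and 4.42, 2.20 and 3.75 CPM after m7G-RIP. It was depleted at a log2 ratio of -2.75 (SE 0.46, adjusted p 0.00091 by edgeR). miR-3922-3p (chr12:104591694-104591715, an intron of CHST11) had 7.79, 14.3 and 15.9 CPM against 0.295, 0.314 and 2.41 CPM, with no overlap and a log2 ratio of -3.59 (SE 0.90, adjusted p 0.00858 by edgeR).

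miR-4326 differed little, with 267, 283 and 290 CPM in total RNA and 201, 206 and 201 CPM after m7G-RIP. It was called depleted at a log2 ratio of -0.46 (SE 0.13, adjusted p 0.0169 by edgeR), but with library size alone the ratio was 0.091, and without total RNA replicate 2 the adjusted p was 0.0607. Its direction therefore depended on the scaling. miR-3074-3p, at 64.5 ± 4.43 CPM in total RNA and 80.4 ± 19.5 CPM after m7G-RIP (SD, n = 3), was not called (adjusted p 0.271 by edgeR). It is antisense to miR-24-1-5p, which was listed at 0 in all 6 libraries, and its own partner miR-3074-5p was also at 0. The libraries were stranded, but whether the counting used strand is not given in the sources used here, and without it reads of opposite strands cannot be told apart.

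Some members were at or near 0 in 1 group. In m7G-RIP, 6 members had at most 3 reads in every library. miR-3133, in an intron of FARP2, had 33, 74 and 19 reads in total RNA and none in m7G-RIP, so it was at least 17.4-fold lower there, taking 3 reads over the group as the floor. miR-4517 had 64 reads in total RNA and none in m7G-RIP, at least 8.85-fold lower. miR-4677-3p, from an intron of SDCCAG8, had 94, 58 and 71 reads in total RNA and 1 in all of m7G-RIP, a 92.5-fold ratio of scaled counts with a 95% exact counting interval from 16.4 to 3668. These 3 entries had all or nearly all of their reads in total RNA. miR-3155b had 130 reads against 1, a ratio of 53.9 (9.51 to 2145). miR-3938 had 72 against 2, a ratio of 14.9 (3.98 to 126). miR-3653-5p had 69 against 5, a ratio of 5.72 (2.34 to 18.2). Intervals and floors cover counting error only, since these reads carry no molecular identifiers. Of these 6 members, miR-3133, miR-3155b and miR-4677-3p were called depleted, while miR-4517, miR-3938 and miR-3653-5p got no call. However, miR-3133 no longer passed the filter without any 1 total RNA replicate, and miR-3155b without replicate 2 or 3. The 22 bases of miR-3133 also have 4 exact matches and 41 sites at 1 mismatch in the genome.

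The reverse pattern held for miR-4728-5p, which sits in an intron of the receptor tyrosine kinase gene ERBB2. It had 2 reads in total RNA, all in replicate 2, and 16, 34 and 48 in m7G-RIP, a 118-fold ratio of scaled counts with a 95% exact counting interval from 31.9 to 990. miR-3654 had 4 reads in total RNA and 63 in m7G-RIP, a ratio of 38 with an interval from 14.1 to 144.

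Members of 17 or 18 bases had near matches elsewhere in the genome. Of 119 members with a sequence, 14 were 17 or 18 bases long, and each of these had between 3 and 32 genomic sites at 1 mismatch, with a median of 9. Among the 105 longer members, 77 had no site at 1 mismatch. Of the 13 members of 17 to 18 bases that were tested, 8 were enriched and 1 was depleted, with a median log2 ratio of 1.63. At 19 to 20 bases, 8 of 11 were enriched and 1 was depleted. At 21 to 22 bases, the usual length of a DICER product, 13 of 58 were enriched and 8 depleted, with a median log2 ratio of 0.57. At 23 to 26 bases, 8 of 28 were enriched and 1 depleted.

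Over all miRNAs tested, 11 of 19 at 17 to 18 bases and 17 of 39 at 19 to 20 bases were enriched. At 21 to 22 bases the number was 80 of 371, with a median log2 ratio of -0.16. At 23 to 26 bases it was 27 of 128, with 42 depleted and a median of -0.17, against 1.55 for the members of that length. Members make up 13 of the 19 shortest miRNAs tested, so the members and all miRNAs share most of that class.

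**Figure D3:**
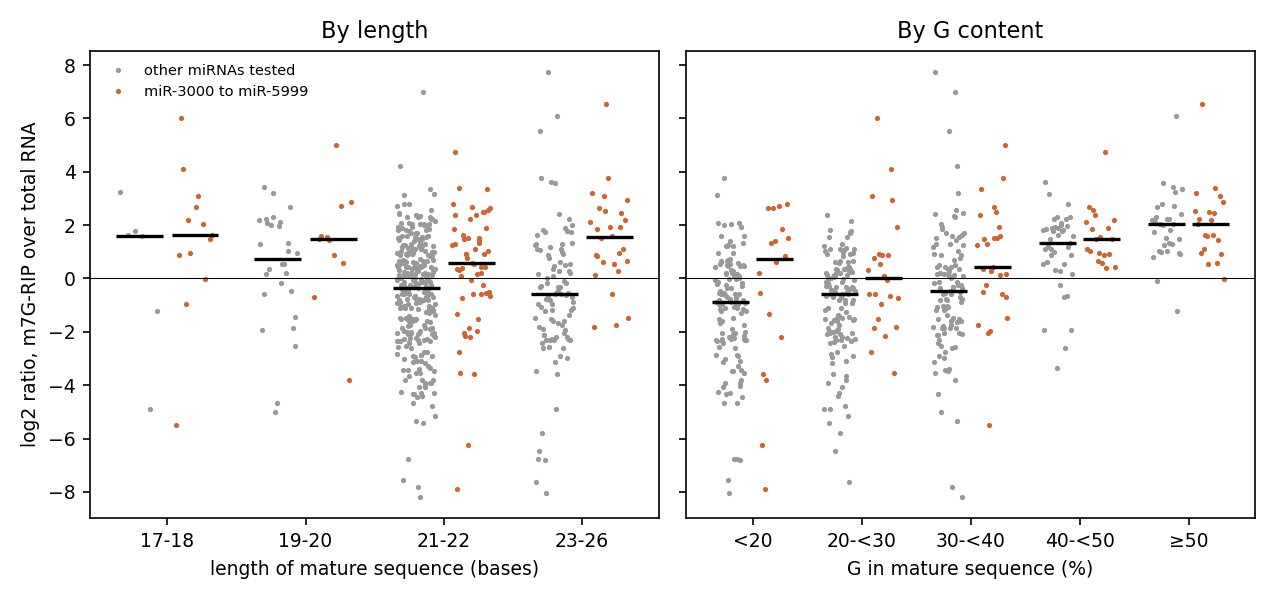
Log2 ratio of m7G-RIP over total RNA for members from miR-3000 to miR-5999 (right of each pair) and the other miRNAs tested (left), by length of the mature sequence in bases and by its G content in percent, with medians as bars. Members of 40% G and over run from -0.028 upward, and members of 21 to 22 bases are centred lower than shorter ones.

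Of the 119 members with a sequence, 5 matched a structural RNA in the reference genome with at most 1 mismatch, and the others could not be searched. miR-4485-3p is an exact match to mitochondrial 16S rRNA (MT-RNR2), the large ribosomal RNA of the mitochondrion. It read 20.5, 25.2 and 27.6 CPM in total RNA and 49.8, 32.6 and 52.2 CPM after m7G-RIP. The groups did not overlap and the log2 ratio was 0.88 (SE 0.29, adjusted p 0.0274 by edgeR), a call lost without 5 of the 6 libraries, all but m7G-RIP replicate 2, at adjusted p from 0.0733 to 0.199. Its partner miR-4485-5p, whose groups overlapped, was not called.

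miR-4488 is an exact match to 28S rRNA, and miR-4497 matches it with 1 mismatch. miR-4497 was enriched, at 5.16 ± 0.746 CPM in total RNA and 14.4 ± 1.24 CPM after m7G-RIP (SD, n = 3, adjusted p 0.0247 by edgeR), while miR-4488, at 1.82 ± 0.907 and 7.57 ± 4.12 CPM, did not pass the test (adjusted p 0.0616 by edgeR). The miR-4497 call was lost without 5 libraries, all but m7G-RIP replicate 2, at adjusted p from 0.0541 to 0.117.

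miR-3182, the most abundant member in m7G-RIP, matches a valine tRNA (TRV-CAC2-1) with 1 mismatch. miR-5701 matches SNORD43, a small nucleolar RNA, with 1 mismatch, and went the other way, with 14.6, 13.2 and 11.4 CPM in total RNA against 0, 2.83 and 0 CPM after m7G-RIP. Its log2 ratio was -3.81 (SE 1.2, adjusted p 0.0243 by edgeR), and without total RNA replicate 1 or 3 the adjusted p was 0.0564 or 0.0525. Whether reads assigned to these entries came from the structural RNA was not tested, since no reads were analysed here.

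Exact matches to spliced mRNA outside the listed hairpin locus were seen for miR-4426 and miR-3654, which had high ratios. miR-4788, which matches 2 processed pseudogenes exactly, had 68 of its 75 reads in total RNA. The listed hairpin of miR-4426 is at chr1:192716333-192716349, but the same 17 bases occur in the mRNA of RPS27A, a ribosomal protein fused to ubiquitin, and in 3 of its processed pseudogenes. miR-4426 had 0, 1.66 and 1.05 CPM in total RNA and 66.9, 49.3 and 62.1 CPM after m7G-RIP. The groups did not come near each other, with a log2 ratio of 6.02 (SE 0.76, adjusted p 0.000159 by edgeR), but the entry passed the filter through its m7G-RIP libraries alone.

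miR-3654, listed in an intron of CHCHD3 at chr7:133034860-133034878, occurs exactly in the mRNA of EEF1G, a subunit of the translation elongation factor, and in 3 processed pseudogenes. It had 0.113, 0 and 0.394 CPM in total RNA and 1.47, 6.28 and 10.2 CPM after m7G-RIP. The lowest m7G-RIP level was thus above the highest total RNA level.

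The position of an entry in its gene was a further difference among members. By GENCODE annotation, 64 of the 119 members with a sequence lie in introns, 20 in exons, 17 between genes, 14 antisense to a gene, and 4 at loci of more than 1 kind. Of the tested members, 8 start within 50 bases of an annotated transcript start, and of these 4 were enriched and none was depleted, with a median log2 ratio of 2.00. Over all miRNAs, 34 start within that distance, of which 11 were enriched and 6 depleted. miR-3652, which begins 7 bases before a transcript start of the chaperone gene HSP90B1, read 12.6, 11.3 and 8.15 CPM in total RNA and 36.8, 17.6 and 45.2 CPM after m7G-RIP. These groups did not overlap (log2 ratio 1.63, SE 0.41, adjusted p 0.00929 by edgeR), but without m7G-RIP replicate 3 the adjusted p was 0.0631.

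Both arms of miR-4687, which span a transcript start of the calcium sensor gene STIM1 on chromosome 11, were called enriched. The 5′ arm rose from 1.59 ± 1.30 to 10.1 ± 2.09 CPM and the 3′ arm from 1.92 ± 1.37 to 10.8 ± 6.51 CPM (SD, n = 3). At these levels the calls were fragile, since that of the 5′ arm was lost without any 1 of the 6 libraries (adjusted p from 0.0567 to 0.0942) and that of the 3′ arm without any library other than m7G-RIP replicate 2 (adjusted p from 0.0536 to 0.177). miR-3917, at the start of STMN1, and miR-5001-5p, at the start of TIGD1, were not called.

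Of the 119 members with a sequence, 10 had an end at or near an intron edge. A mirtron arm has such an end, but the edge alone does not show release by splicing, which was not tested. The last base of miR-3605-3p, miR-3620-3p, miR-4667-3p, miR-4728-3p, miR-4749-3p and miR-5010-3p was the last base of an intron. For miR-3605-3p and miR-4728-3p these introns have 1439 and 708 bases, and the arms begin 1416 and 683 bases from the intron start. The shortest introns of miR-3620-3p, miR-4667-3p, miR-4749-3p and miR-5010-3p have 79, 148, 108 and 144 bases. Of these 6, miR-4667-3p, miR-4728-3p and miR-4749-3p were enriched, with log2 ratios of 2.80, 2.64 and 2.70 (adjusted p 0.0197, 0.0327 and 0.0233 by edgeR), while the other 3 were not called. These calls came from few reads, with means of 1.26, 0.866 and 1.19 CPM in total RNA. Leaving out single libraries ended each of them, 3 libraries for miR-4667-3p (total RNA replicates 1 and 2 and m7G-RIP replicate 2, adjusted p from 0.0565 to 0.09), 5 for miR-4728-3p (all but m7G-RIP replicate 2, from 0.0754 to 0.147) and 5 for miR-4749-3p (all but m7G-RIP replicate 1, from 0.0668 to 0.0988).

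On the donor side, miR-3940-5p and miR-4758-5p start on the first base of an intron, miR-4745-5p 1 base after it and miR-4690-5p 2 bases after it. The introns concerned are short, 82 bases for miR-3940, 76 for miR-4758, 73 for miR-4745 and 83 for miR-4690. Of these 4, miR-3940-5p was enriched and the other 3 did not pass the test, at log2 ratios from 0.91 to 3.10. At both intron edges, calls were counted for members only, so these counts are descriptions. Over all 620 miRNAs tested, at an intron edge or not, 23.5% were enriched.

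Both arms were members for 17 hairpins, which allows the arms of 1 precursor to be compared within a library. The 5′ arm's share of the hairpin's reads was higher in every m7G-RIP library than in every total RNA library for 3 hairpins, lower for none, and overlapped or could not be computed in every library for the other 14. The 3 were miR-3940, miR-4728 and miR-5010. How often arm shares separate in this way over the other hairpins of the series was not tested, so 3 of 17 is a description.

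For miR-3940, in an intron of KHSRP, an RNA-binding protein that takes part in miRNA maturation, the 5′ arm held 42.1%, 18.9% and 34.0% of the reads in total RNA and 94.1%, 85.6% and 86.6% in m7G-RIP. The 5′ arm, at chr19:6416470-6416489 and 60% G, rose by a log2 ratio of 2.85 (SE 0.32, adjusted p 7.1e-05 by edgeR). Its 3′ arm, at chr19:6416434-6416455 and 18.2% G, fell by 1.35 on the log2 scale (SE 0.50, adjusted p 0.0478 by edgeR), a call lost without total RNA replicate 1, total RNA replicate 2 or m7G-RIP replicate 1, at adjusted p from 0.0588 to 0.247.

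For miR-5010, in an intron of the proton pump gene ATP6V0A1, the 5′ arm held 0.457%, 1.69% and 1.48% of the reads in total RNA and 39.1%, 20.9% and 46.9% in m7G-RIP. Its level rose from 0.113, 0.357 and 0.526 CPM to 10.0, 7.53 and 10.2 CPM (log2 ratio 4.73, SE 0.86, adjusted p 0.00148 by edgeR). This arm passed the filter through its m7G-RIP libraries alone. The 3′ arm, which supplied nearly all reads in total RNA, was not called at a log2 ratio of -0.53 (SE 0.41, adjusted p 0.301 by edgeR).

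miR-4728 had 0%, 13.3% and 0% of its reads on the 5′ arm in total RNA and 44.4%, 75.6% and 64.0% in m7G-RIP. The 5′ arm is 52.2% G and the 3′ arm 16.0% G. In miR-3173, an intronic miRNA of DICER1, the gene of the enzyme that cuts these precursors, both arms were called enriched. Its 5′ arm went from 21.7, 17.8 and 28.7 CPM to 54.5, 64.4 and 52.2 CPM (log2 ratio 1.33, SE 0.27, adjusted p 0.00279 by edgeR). Its 3′ arm had a log2 ratio of 2.66 (adjusted p 0.018 by edgeR), lost without total RNA replicate 1 or 2 or m7G-RIP replicate 2 at adjusted p from 0.0506 to 0.121.

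Among the other pairs, besides miR-4485, 1 arm was called enriched in miR-3127 (5′ arm, log2 ratio 2.13), miR-3180 (3′ arm, 1.62) and miR-3187 (3′ arm, 1.42). Each of these 3 calls was lost without 2 or 3 of the libraries, at adjusted p from 0.0574 to 0.0918, from 0.0775 to 0.17 and from 0.0637 to 0.0881. They were total RNA replicate 3 and m7G-RIP replicate 1 for miR-3127-5p, m7G-RIP replicates 2 and 3 for miR-3180-3p, and total RNA replicate 1 and m7G-RIP replicates 2 and 3 for miR-3187-3p. Neither arm was called in miR-3129, miR-3605, miR-4436b, miR-4717, miR-4758 and miR-5001, at log2 ratios from -0.59 to 3.10 and adjusted p from 0.0658 to 0.94 by edgeR. The arms of miR-3653 and miR-3678 did not pass the filter.

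**Figure D4:**
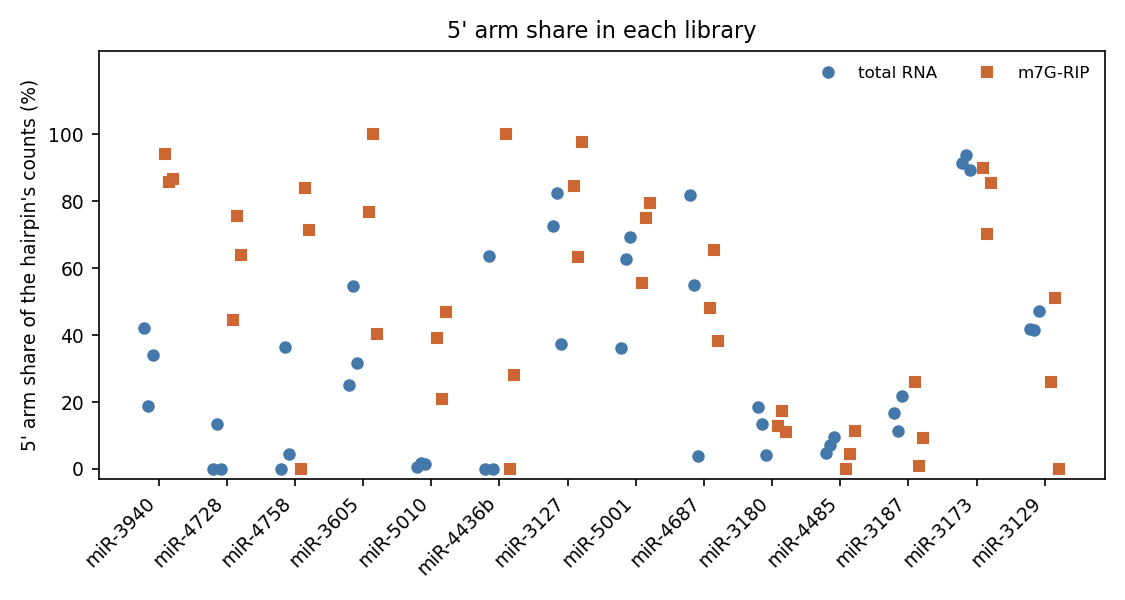
Share of a hairpin's reads on its 5′ arm, in percent, in each of 3 total RNA libraries (circles) and 3 m7G-RIP libraries (squares), for the hairpins with both arms among the members reads in every library and both arms tested, ordered by the difference between group means. In miR-3940, miR-4728 and miR-5010 all m7G-RIP points lie above all total RNA points, and in the others the groups overlap.

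G content went with the ratio among members and over all miRNAs, but less evenly among members. Across the 110 tested members with a sequence, the log2 ratio rose with the percentage of G in the mature sequence (Pearson r = 0.38, Spearman rho = 0.37), against r = 0.41 and rho = 0.44 over all 557 miRNAs with a sequence. These points are miRNAs from the same 6 libraries, not replicates, and the members are among the 557. At 50% G and over, 12 of 21 members were enriched and none was depleted, and over all miRNAs 32 of 53 were enriched. Under 20% G, 5 of 18 members were enriched and 6 were depleted, with a median log2 ratio of 0.73, while over all miRNAs 15 of 148 were enriched and 58 were depleted, with a median of -0.78. At 20 to under 30% G and at 30 to under 40% G, the members' medians were 0.02 and 0.43, against -0.59 and -0.24 over all miRNAs. C content gave r = -0.15 and length r = -0.04 among members.

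In the hairpins with both arms tested and sequenced, the higher ratio belonged to the G-richer arm in 8 of 12. The difference in G between arms and the difference in log2 ratio had r = 0.64 and rho = 0.62 over 13 hairpins, as a description. miR-3129, miR-3180, miR-4436b and miR-4687 went against this. miR-4687 had 9.09% G on the 5′ arm, 57.1% on the 3′ arm and nearly equal ratios. The 13 hairpins include miR-4717, whose arms had the same log2 ratio.

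Seeds tied a few members to large families. The set below shows members that carry the seed of let-7, a family that restrains growth genes, and of miR-320.
miR-4458: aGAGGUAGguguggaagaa
miR-4500: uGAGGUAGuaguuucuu
miR-4429: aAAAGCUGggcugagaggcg

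miR-4458 read 10.4, 10.9 and 10.3 CPM in total RNA and 24.4, 35.2 and 32.7 CPM after m7G-RIP, with no overlap (log2 ratio 1.55, SE 0.32, adjusted p 0.00296 by edgeR). miR-4500 was scarcer, at 2.49 ± 1.09 and 4.57 ± 3.77 CPM (SD, n = 3), and was not called (adjusted p 0.494 by edgeR). miR-4500 also has 32 genomic sites at 1 mismatch. miR-4429 was steady within groups, at 13.7, 15.9 and 15.1 CPM in total RNA and 41.8, 40.5 and 41.2 CPM after m7G-RIP, with a log2 ratio of 1.47 (SE 0.26, adjusted p 0.00133 by edgeR). Ratios of miR-320b, miR-320c and miR-320d, which share its seed, were 1.94, 2.00 and 1.98. The other 9 miRNAs with the let-7 seed ran from a log2 ratio of -0.13 for let-7i-5p to 2.24 for let-7e-5p.

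The counts of some entries were tied to each other. Of 26 members with more than 1 exact genome match, 10 had counts that in all 6 libraries were multiples of a common number, against 6 of 93 members with a single match. Counts of miR-3179 were multiples of 4, those of miR-5701 and miR-3180-3p of 3, and those of miR-4444 of 2. miR-3180 and miR-3180-3p are printed here because they begin with the same 19 bases.
miR-3180: uGGGGCGGagcuuccggag
miR-3180-3p: uGGGGCGGagcuuccggaggcc

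Divided by 2, miR-3180 had 74, 26 and 94 reads in total RNA and 44, 71 and 139 in m7G-RIP. Divided by 3, miR-3180-3p had 75, 26 and 94 and then 48, 71 and 139. The pair therefore differed by no more than 4 reads in any library, and both calls, with log2 ratios of 1.61 and 1.62, rest on nearly proportional counts. The miR-3180 call was lost without total RNA replicate 1, m7G-RIP replicate 2 or m7G-RIP replicate 3, at adjusted p from 0.0533 to 0.209 by edgeR. With counts divided in this way, 37 members were enriched and 14 depleted, an alternative chosen after seeing the data.

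miR-4717 had equal counts on its arms in every library, 7, 23 and 19 in total RNA and 7, 0 and 7 in m7G-RIP. Its arms, printed next, are each other's reverse complement over 21 bases, so their reads cannot be told apart if strand was not used.
miR-4717-5p: uAGGCCACagccacccaugugu
miR-4717-3p: aCACAUGGguggcuguggccu

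The arms of miR-3678, complementary over 16 bases, had equal counts in 5 of 6 libraries, and in m7G-RIP replicate 2 they had 46 and 43. Their complement leaves the same limit as for miR-4717.

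Which entries look like hairpin products was described with 4 criteria, taken from the total RNA counts and from predicted folds of the RefSeq hairpin sequences. Each arm should have at least 10 reads over the total RNA libraries, the arms should pair with 3′ overhangs of 0 to 4 bases at both ends, at least 60% of the bases of each arm should be paired, and the folding energy should be below -0.2 kcal/mol per base. The members came from 103 hairpins with a sequence, of which 46 have both arms listed and 57 only 1. All 4 criteria were met by 17 of the 46, or 37%. Among hairpins of entries numbered under 1000 that reached the same summed count, 129 of 187 met them, or 69.0%.

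The criteria differed in how far they separated the sets. Paired bases and folding energy were met by all 46 hairpins and by all 187 older ones, and 56 of the 57 with 1 listed arm met them too, the exception being miR-4426. Overhangs were met by 80.4% against 93.0%. Reads on both arms were met by 52.2% against 75.4%. The less counted arm had a median of 10.5 reads in the members' hairpins and 82 in the older ones, and the more counted arm medians of 86 and 2572. Where the more counted arm had 20 to under 200 reads, 13 of 32 hairpins of members and 13 of 30 older ones met all 4 criteria. Where it had 200 to under 2000 reads, the numbers were 3 of 13 and 25 of 50.

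**Figure D5:**
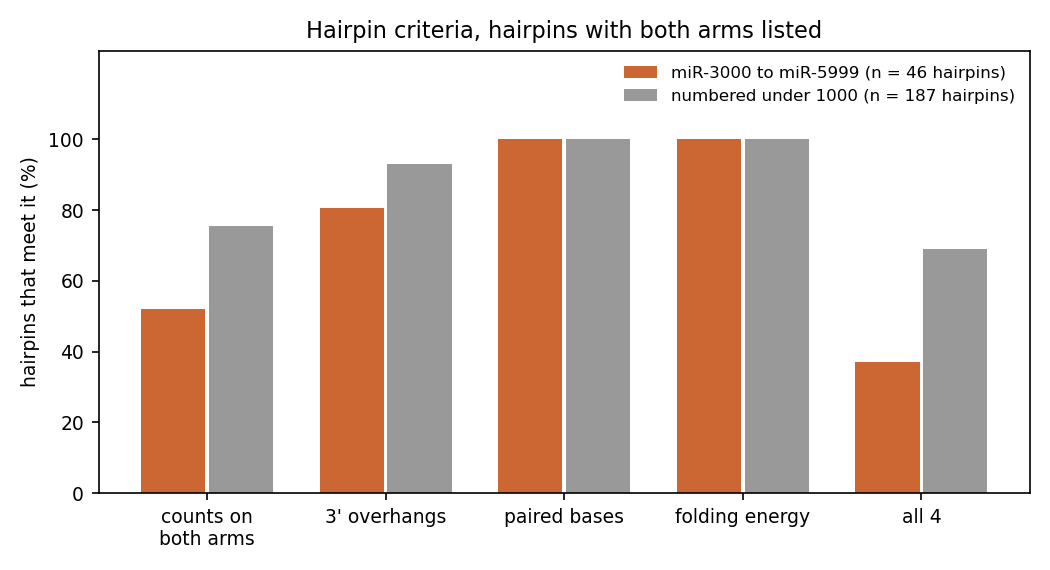
Percentage of hairpins with both arms listed that meet each of 4 hairpin criteria and all 4 together, for 46 hairpins of members from miR-3000 to miR-5999 and 187 hairpins of entries numbered under 1000. Paired bases and folding energy are met by every hairpin of both sets, and all 4 criteria by 37% and 69.0%.

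The 17 hairpins that met all criteria were those of miR-3064, miR-3127, miR-3129, miR-3173, miR-3177, miR-3605, miR-3678, miR-3944, miR-4436b at both of its copies, miR-4652, miR-4671, miR-4676, miR-4687, miR-4690, miR-4745 and miR-4755. Well counted examples are miR-3173, with 560 and 54 reads on its arms in total RNA, and miR-4671, with 473 and 16. miR-3678 is in this list with 11 reads on each arm, and its arms have the near-equal counts given above. The 2 copies of miR-4436b share the same counts, which are multiples of 2. Its 5′ arm met the read criterion with 28 reads, all in total RNA replicate 2. miR-4671-5p went from 17.5, 22.9 and 16.4 CPM in total RNA to 0, 1.88 and 2.94 CPM after m7G-RIP, with no overlap (log2 ratio -3.53, SE 0.85, adjusted p 0.00739 by edgeR).

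Several prominent entries did not meet all criteria or could not be examined by them. miR-3940 missed the overhang criterion, with its arms offset by -2 bases at 1 end. miR-4728 and miR-5010 missed the read criterion, with 2 and 8 reads on the 5′ arm in total RNA. miR-4677-3p, miR-4746-5p and miR-3074-3p had a partner arm at 0 in total RNA. miR-3615, miR-4521, miR-4473, miR-3182, miR-4444 and miR-4426 have 1 listed arm, so that only the fold could be examined. The folds of the first 5 met both criteria, at -0.522, -0.285, -0.589, -0.397 and -0.505 kcal/mol per base, and that of miR-4426 missed the energy criterion at -0.194. The fold of miR-3168 was not analysed here.

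Calls in both directions were found in each class of hairpin. Of the 20 tested members from hairpins that met all 4, 6 were enriched and 1 was depleted, with a median log2 ratio of 1.28. From hairpins with both arms listed that missed a criterion, 11 of 33 were enriched and 3 depleted, with a median of 1.09. From hairpins with 1 listed arm, 14 of 45 were enriched and 5 depleted, with a median of 0.89. Over all tested members 30.3% were enriched and 11.5% depleted, and over all miRNAs tested 23.5% and 29.2%.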

How the data were processed

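Small RNA reads of 3 total RNA and 3 m7G-RIP libraries were analysed from the authors' deposited raw counts per mature miRNA. Per the labels and the study's methods, the authors prepared libraries with the NEBNext SmallRNA kit, trimmed adaptors with Trimmomatic, aligned to GRCh38 and counted with featureCounts on miRBase entries. The submitters' processing notes name Bowtie2 and the methods name STAR as aligner, and tool versions are not given in the sources used here. Each group came as its own table, so preparation batch and group cannot be told apart. The libraries were stranded and single-end, and the STAR settings kept reads with up to 10 places in the genome. How the counting treated such reads, and whether it used strand, is not given in the sources used here.

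Both tables were joined and tested with edgeR 4.0.16 in R 4.3.3 (TMM scaling, default expression filter by group, robust quasi-likelihood F test, 2-sided, Benjamini-Hochberg adjustment over all 620 miRNAs tested, threshold 0.05). CPM are counts relative to the TMM-scaled library size. The fit was tested on simulated data. Alternatives used DESeq2 1.42.0, limma 3.58.1, other scalings, filters, a replicate block and fits without each library.

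Members and lists were chosen with earlier results of these data known. Named entries were the 5 largest and 5 smallest called ratios among entries without overlap that had 10 reads in each library, the 8 most abundant in total RNA and 5 in m7G-RIP, both arms of hairpins with both arms among the members, up to 6 at the floor (at most 3 reads in every library of a group), and the 3 on each side of the count minimum. Hairpins were folded with RNAfold of ViennaRNA 2.7.2 at 37 degrees C. Sequences and hairpins are from RefSeq (GRCh38.p14), locations from GENCODE v44, and genome matches with 0 or 1 mismatch were searched on both strands of GRCh38.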

Additional observations from a re-analysis of the deposited data

How the results depend on the processing

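No member called in the reported fit was called in the opposite direction in any of the 13 alternative fits over all miRNAs. With library size alone, 51 members were enriched and 11 depleted, and the members' median log2 ratio was 1.48. With that scaling, the log2 ratio of miR-4326 was 0.091. With no filter the median was 0.65, and with at least 10 reads in every library 6 members were depleted, out of 47 tested. The replicate block called 24 enriched members, 24 of them among the 37 of the fit without it, and 13 depleted members. Same-numbered libraries did not deviate together (correlations of -0.043, -0.101 and 0.064), and the reported fit has no block. The columns of total RNA are named as input, and whether same-numbered libraries share RNA is not given in the sources used here. miR-133a-3p had reads in replicate 2 of both groups alone. Fits without 1 library each gave 24 to 30 enriched members, 9 to 21 depleted members and medians from 0.54 to 1.22, and tested between 110 and 132 members. DESeq2's Wald test called 42 and 15, and limma-voom 43 and 17. A minimum of 30 or 120 summed reads, or putting back the numbers left out, gave 29 to 38 enriched members and 14 or 15 depleted ones. Hairpins that met all 4 criteria numbered 22 at a minimum of 5 reads per arm, 9 at a minimum of 20, 23 with the reads of both groups summed, 12 to 16 with stricter fold criteria and 11 to 13 without a total RNA library. In m7G-RIP, 36 of the 133 members had no read in at least 1 library, and 53 of the 69 tested members under 200 summed reads did not pass the test, while 14 were enriched and 2 depleted.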
